A study of Mus musculus with 2 samples.

Results

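This account describes 42 genes of the actin cytoskeleton in the cytosol of mouse macrophages, taken by gene symbol from a fixed list that covers actin itself and the proteins that bind, nucleate, cap, bundle and anchor it. Each of the 42 symbols matched 1 of the 55536 annotated genes of the deposited gene tables. The rule for membership uses gene symbols and no measured value, but the list was drawn up with earlier results of these data known. The cells were primary macrophages grown from bone marrow of C57BL/6J mice. They received 100 ng/ml lipid A, the membrane anchor of bacterial endotoxin and a ligand of TLR4, for 12 h, rested for 12 h after washing, and met 100 ng/ml lipid A again for 75 min. Cytosolic RNA was then isolated, freed of ribosomal RNA and sequenced from 1 µg of starting material. There was 1 group with 2 biological replicates. Both carry the same donor code under separate biosample entries, and their labels give no sex or age. The labels do not say whether they came from separate animals or cultures, so the spread given below is that between these 2 libraries and may be technical in part. No untreated library, nuclear library or library of a single dose was analysed here, so every result below is a level and no effect of lipid A can be read from it.

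Actin is made as a soluble monomer that assembles into polar filaments. Sequestering and recycling proteins hold and renew the pool of monomers, the Arp2/3 complex starts new branches when activators of the WASP family switch it on, and capping, bundling and crosslinking proteins set how long and how stiff the network becomes. Macrophages rely on this network to crawl, to form the adhesive structures called podosomes and to pull in particles during phagocytosis.

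The deposited expected counts summed over annotated genes to 64187226 in replicate 1 and 49429893 in replicate 2. Levels are given as TPM, a deposited abundance corrected for transcript length that can be compared between genes within a library. A gene counted as detected when both libraries gave it 1 TPM or more, and its level was named low under 10, moderate from 10 to under 100 and high at 100 or more. The macrophage label was borne out by defining markers: all 10 were detected and 7 were high, with summed TPM of 5231 and 5762. Of 10 fibroblast and smooth muscle markers and of 8 megakaryocyte and erythroid markers, 0 were detected. Endothelial genes reached 2 of 8 (Vwf and Kdr, both low), lymphocyte genes 2 of 11 (Cd4, which was moderate, and Cd79b) and neutrophil genes 2 of 9 (S100a9 and S100a8, both low), while Ly6g and Retnlg were listed at 0.

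Many messages of the 42 listed genes were among the most abundant in this cytosol. The list was drawn up with earlier results of these data known. These levels therefore describe the listed genes and not actin cytoskeleton genes in general. All 42 genes were detected, against 16.7% of annotated genes. That base includes noncoding genes and pseudogenes and so is not a like one. Of the 9302 detected genes, 8812 are protein-coding. High levels were found for 22 of the 42 (52.4%), against 4.34% of the 9302 detected genes. A further 16 were moderate and 4 were low, namely Actn1, Ezr, Fscn1 and Vcl. The median over the 42 genes was 124 TPM in replicate 1 and 116 in replicate 2 (120 ± 5.89, SD, n = 2), while detected protein-coding genes as a whole had medians of 8.03 and 7.32. Ordered by mean TPM among protein-coding genes, 2 of the 42 stood in the first 10, 8 in the first 100 and 22 in the first 400. Together they made up 4.77% and 5.34% of protein-coding TPM and 3.20% and 3.48% of expected counts. Expected counts per gene ran from 274 for Fscn1 in replicate 1 to 544256 for Actb in the same library.

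**Figure D1:**
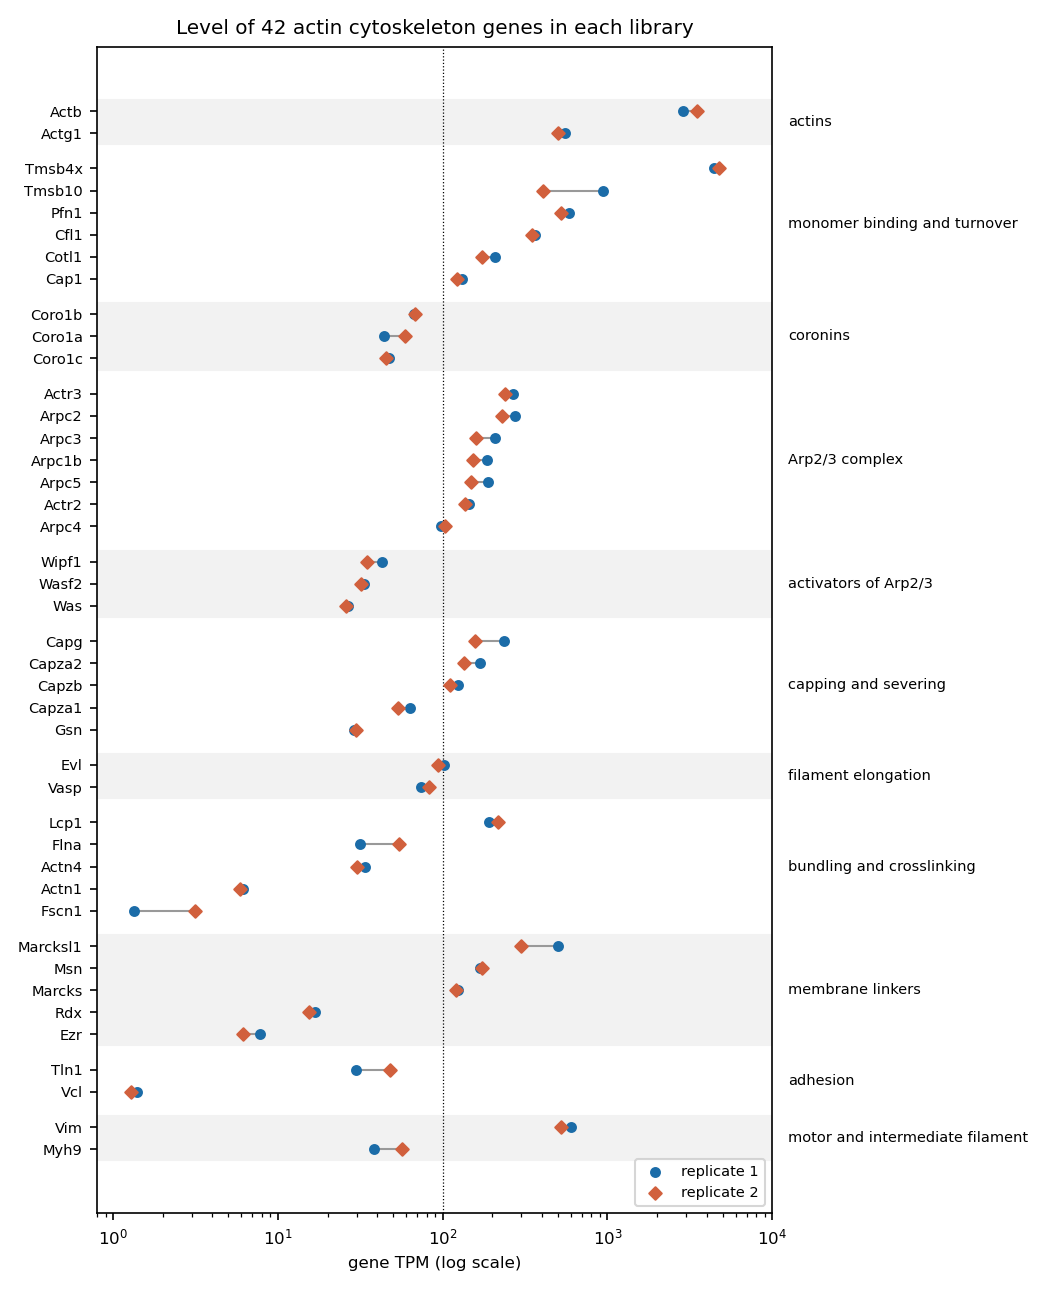
Gene TPM (log axis) of the 42 genes in replicate 1 (circles) and replicate 2 (diamonds), grouped by role, with a grey line joining the pair and a dotted line at 100 TPM. Actins and monomer-binding proteins lie at the right, activators of Arp2/3 and adhesion proteins further left, and Tmsb10 and Fscn1 have the widest gaps between libraries.

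Cytoplasmic actin came mainly from Actb. Actb, beta-actin, stood at 2865 TPM in replicate 1 and 3501 in replicate 2 (3183 ± 450, n = 2), the 7th most abundant protein-coding message. Actg1, gamma-actin, stood at 552 and 504 (528 ± 33.8). Both libraries thus held more Actb than Actg1, by 2.38 and 2.80 on the log2 scale of TPM, a geometric mean ratio of 6.01. On the mm10 assembly Actb lies on chromosome 5 from 142903115 to 142906754 and Actg1 on chromosome 11 from 120345690 to 120348542, both on the minus strand. The other actins, which belong to striated and smooth muscle, were not detected: Acta2 stood at 0.090 and 0.11, and Acta1, Actc1 and Actg2 were listed at 0 in both libraries.

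The coding sequences of these 2 genes show how much of a read can tell them apart. Both are 1128 bases long with the stop codon and are identical at 88.7% of positions. Their first 120 bases follow from the GENCODE M21 transcripts, with the 22 positions at which they differ in capitals.
Actb: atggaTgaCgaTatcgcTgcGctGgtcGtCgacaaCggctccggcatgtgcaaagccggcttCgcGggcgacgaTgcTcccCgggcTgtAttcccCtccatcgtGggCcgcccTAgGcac
Actg1: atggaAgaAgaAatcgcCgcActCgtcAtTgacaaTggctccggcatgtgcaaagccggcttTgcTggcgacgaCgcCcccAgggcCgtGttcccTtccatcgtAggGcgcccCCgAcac
The main transcripts of the 2 genes, untranslated parts included, share only 106 stretches of 31 bases. More overlap exists with other genes. Of the 31-base words of the main Actg1 transcript 57.1% occur in transcripts of other genes, chiefly the processed pseudogene Gm12715. For Actb the share is 35.1%, and the protein-coding gene Lrrc58 on chromosome 16, at 17.4 and 13.9 TPM, shares the most. Gm12715 stood at 14.0 and 12.1 TPM in the alignment-based gene table but at 0.049 and 0.054 in the read-based table, so the split between Actg1 and this pseudogene is uncertain by about that amount.

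The most abundant message of the set was that of a small protein that holds actin monomers back from assembly. Tmsb4x, thymosin beta 4, stood at 4458 and 4787 TPM (4622 ± 233, n = 2), the 4th most abundant protein-coding message. Its relative Tmsb10 stood at 940 and 409 (674 ± 376). The ratio of Tmsb4x to Tmsb10 was therefore 2.25 on the log2 scale in replicate 1 and 3.55 in replicate 2: the order was the same and the size was not. Tmsb4x lies on the X chromosome from 167207093 to 167209315 and Tmsb10 on chromosome 6 from 72957347 to 72958748. Tmsb4x and Actb together held 51.3% and 59.2% of the TPM of the 42 genes. By expected counts, which grow with transcript length, Actb held 26.5% and 31.6% and the short Tmsb4x 13.3% and 13.8%.

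The whole coding sequences of the thymosins are 135 bases long, short enough to print in full. Capitals mark the 40 positions at which they differ.
Tmsb4x: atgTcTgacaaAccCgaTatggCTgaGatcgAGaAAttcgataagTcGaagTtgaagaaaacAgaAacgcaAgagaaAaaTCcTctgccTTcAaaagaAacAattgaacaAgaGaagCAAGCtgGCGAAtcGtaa
Tmsb10: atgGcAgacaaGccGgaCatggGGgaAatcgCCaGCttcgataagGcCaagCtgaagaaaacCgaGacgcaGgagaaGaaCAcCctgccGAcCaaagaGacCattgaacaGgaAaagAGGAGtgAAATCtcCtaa
The pair is identical at 70.4% of positions and shares 0 stretches of 31 bases, so a read of that length taken without a mismatch belongs to 1 of them. Tmsb4x shares no such word with any other gene. Tmsb10 shares 73.7% of its words with 9 other genes, 8 of them pseudogenes; the protein-coding entry Gm9844 shares the most and stood at 7.52 and 3.34 TPM.

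The other proteins of monomer supply and turnover were all high. Pfn1, profilin 1, which delivers monomers to growing filament ends, stood at 588 and 526 TPM (557 ± 43.7). Cfl1, cofilin 1, which severs old filaments, stood at 362 and 348 (355 ± 9.96). Cotl1, coactosin-like protein, a filament-binding protein, stood at 207 and 172 (190 ± 25.0). Cap1, cyclase-associated protein 1, which helps to recycle monomers, stood at 130 and 122 (126 ± 5.93). All 6 genes of this role were above 100 in both libraries, with a median of 427 ± 68.2, the second highest of the roles after the actins. The close relatives of these genes stood far lower: Dstn, destrin, at 46.0 and 36.1, Cfl2 at 5.25 and 4.47, Pfn2 at 0.82 and 0.42, and Cap2 at 0.010 in both.

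The 3 coronins, which bind filaments and the Arp2/3 complex, were moderate and close together. Coro1b stood at 67.1 and 67.5 TPM, Coro1a, the form known from blood cells, at 44.3 and 58.9, and Coro1c at 47.4 and 45.1. Coro1b was thus the highest in both libraries. Coro1a stood under Coro1c in replicate 1 and above it in replicate 2 (log2 ratios of -0.10 and 0.38), so their order was not settled by these data. Expected counts gave another order, with Coro1c first; such counts grow with transcript length, and effective lengths were 3241 bases for Coro1c, 1502 for Coro1b and 1377 for Coro1a. Coro1a and Coro1c overlap genes on the opposite strand that were themselves detected, Bola2 at 25.5 and 19.3 TPM and Gm17122 at 16.6 and 7.25, although Gm17122 was listed at 0 in both read-based tables.

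The 7 subunits of the Arp2/3 complex, which is built with 1 copy of each, were high but for 1 that was moderate. Actr3, an actin-related subunit, stood at 268 and 238 TPM and its partner Actr2 at 144 and 137.5. Arpc2 stood at 274 and 228, Arpc3 at 208 and 159 and Arpc4 at 98.2 and 103. Arpc1b, the form prominent in blood cells, stood at 185 and 152, and Arpc5 at 188 and 148. Mean levels spanned 2.51-fold from Arpc4 (101) to Actr3 (253), a span that lies between those of the other roles, which ran from 1.25-fold for filament elongation to 91.6-fold for bundling and crosslinking. Arpc4 was the single subunit not above 100 TPM in both libraries. The 2 actin-related subunits kept their order in both libraries, with log2 ratios of Actr2 to Actr3 of -0.89 and -0.79. Alternative subunits were less abundant: Arpc1a stood at 17.9 and 14.4, Arpc5l at 15.5 and 11.1, and Actr3b at 0.23 and 0.20.

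Values for Actr3 carry an uncertainty from copies of the gene. Of its 31-base words 63.6% occur in other genes. The pseudogene Gm15899 stood at 57.2 and 48.9 TPM in the alignment-based table and was listed at 0 in both read-based tables, and Gm8822, which shares the most words, stood at 1.20 and 1.34. Arpc1b shared 42.4% of its words, mainly with Gm5637, which stood at 0.40 and 0.29.

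Activators of the Arp2/3 complex were all moderate and stood below the complex itself. Wipf1, a partner protein of WASP, stood at 42.6 and 34.7 TPM, Wasf2, or WAVE2, at 33.1 and 31.9, and Was, the WASP of blood cells, at 26.8 and 26.0. The median of this role was 32.5 ± 0.834, and that of the complex 170 ± 25.3. Was stood under Wasf2 by 0.30 and 0.29 on the log2 scale. The broadly expressed relative of WASP, Wasl, stood at 2.48 and 2.50, and the other WAVE genes were at or near 0: Wasf1 stood at 0.010 and 0, and Wasf3 was listed at 0.

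Among the genes that cap and sever filaments, the barbed-end capping protein was represented by all its broadly expressed subunits. Capza2 stood at 167 and 134 TPM, Capzb at 124 and 110, and Capza1 at 63.7 and 53.3. The alpha subunit message was thus mostly Capza2, with log2 ratios of Capza1 to Capza2 of -1.39 and -1.33. Of Capza1's 31-base words 80.3% recur elsewhere, 79.6% in the pseudogene Gm3608, which stood at 1.40 and 1.36 TPM. The testis form Capza3 was listed at 0. Capg, a gelsolin-like capping protein of macrophages, stood at 235 and 158, and Gsn, gelsolin, which severs filaments as well, at 29.1 and 29.6. The ratio of Capg to Gsn was 3.01 and 2.41 on the log2 scale.

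Proteins of growing filament ends were moderate. Evl stood at 101 and 93.2 TPM and its relative Vasp at 73.5 and 82.0. The order Evl above Vasp held in both libraries (log2 ratios of Vasp to Evl of -0.46 and -0.18) but turned round in expected counts, where Vasp exceeded Evl by 0.61 and 0.83. The effective length behind the TPM was 957 bases for Evl and 1971 for Vasp. The leading Evl transcript, Evl-207, is annotated as a fragment of 569 bases without a complete coding sequence, so which of the 2 genes is the more abundant cannot be read from these values. The third family member, Enah, stood at 0.030 and 0.050.

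Bundling and crosslinking genes spread the most of all roles. Lcp1, L-plastin, the bundling protein of leukocytes, stood at 192 and 216 TPM, and Flna, filamin A, which crosslinks filaments into gels, at 31.5 and 54.4. By gene TPM the alpha-actinin message was mostly Actn4, at 33.7 and 30.1, with Actn1 at 6.17 and 5.89, a geometric mean ratio of 5.22. Part of the Actn4 value is assigned to a transcript that is not annotated as protein-coding. The main coding transcripts stood closer together, Actn4-201 at 17.83 and 17.84 and Actn1-201 at 6.16 and 5.83. Fscn1, fascin, which packs filaments into tight parallel bundles, stood at 1.33 and 3.12, from 274 and 653 expected counts. Fscn1 lies on chromosome 5 from 142960343 to 142973185, next to the far more abundant Actb on the other strand, and Flna on the X chromosome from 74223461 to 74249820. The non-leukocyte plastin Pls3 stood at 1.06 and 0.81.

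Linkers between filaments and the plasma membrane divided into abundant and scarce members. Moesin (Msn) stood at 167 and 174 TPM, radixin (Rdx) at 16.7 and 15.5 and ezrin (Ezr) at 7.81 and 6.14. These 3 proteins form the ERM family, and moesin made up most of its message: the geometric mean ratio was 10.6 over radixin and 24.3 over ezrin. Nf2, which encodes the related protein merlin, stood at 11.7 and 8.22. Marcks, a membrane-bound protein that binds actin and is released on phosphorylation, stood at 124 and 121. Its relative Marcksl1 stood at 500 and 298, higher than Marcks by 2.01 and 1.30 on the log2 scale. In expected counts the difference was smaller and its sign depended on the library (log2 ratios of Marcks to Marcksl1 of -0.54 and 0.17).

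The 2 adhesion proteins, which work together, had messages of very different abundance. Tln1, talin 1, which couples integrins to actin, stood at 29.9 and 48.0 TPM, while Vcl, vinculin, which talin recruits, stood at 1.39 and 1.28, the lowest of the 42 genes by mean level (in replicate 1 Fscn1 was lower). Vcl overlaps Ap3m1 on the opposite strand, which stood at 16.9 and 15.5; whether the counting used strand is not given in the sources used here, and without strand, reads from the stretch they share could not be told apart. Myh9, the heavy chain of nonmuscle myosin IIA, stood at 38.1 and 56.9. Its nonmuscle relatives stood far lower, with Myh10 at 0.23 and 0.36 and Myh14 listed at 0. Vim, the intermediate filament protein vimentin, stood at 605 and 520.

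The order of the 42 genes by mean level runs from Tmsb4x and Actb through Tmsb10, Vim, Pfn1, Actg1, Marcksl1 and Cfl1 down to Ezr, Actn1, Fscn1 and Vcl. Of the 41 neighbouring pairs in that order, 25 had overlapping ranges between the 2 libraries and 16 did not, so most single steps in the order are within the spread of the libraries. Among 15 pairs of related genes, 14 had the same direction in both libraries by TPM, the exception being Coro1a and Coro1c.

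**Figure D2:**
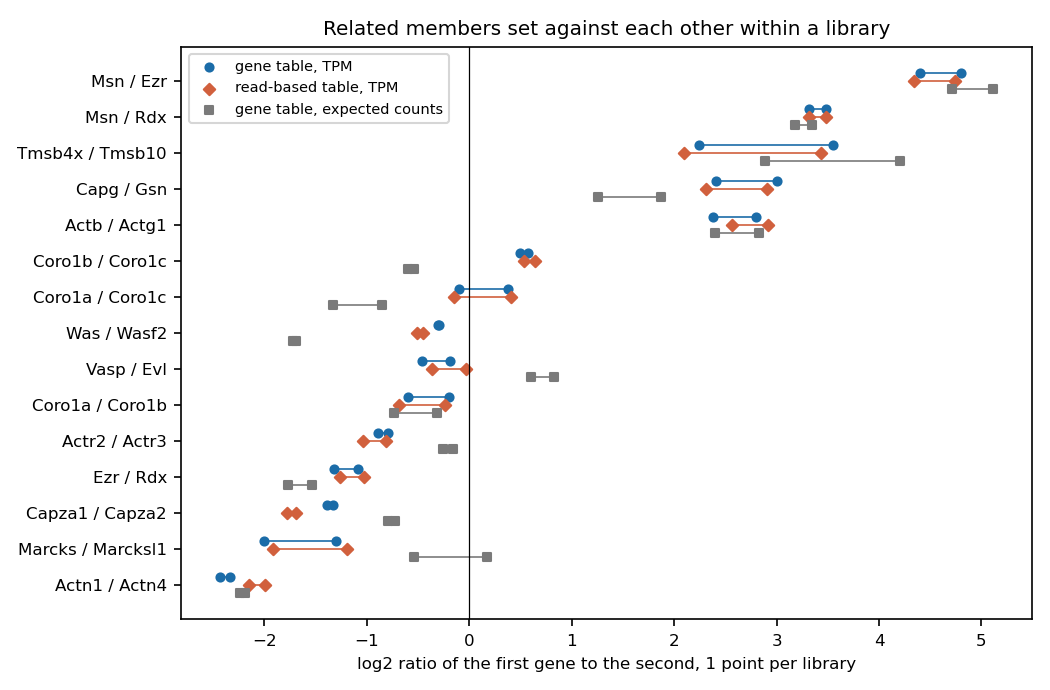
Log2 ratio of the first gene to the second in 15 pairs, 1 point per library, from gene TPM (circles), TPM of the read-based table (diamonds) and expected counts (squares), with lines joining the 2 libraries. Coro1b over Coro1c lies right of 0 by TPM and left of it by expected counts, and Vasp over Evl does the reverse.

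Relatives of the 42 genes that are not in the set were detected in 11 of 44 cases (25.0%), beside 16.7% of annotated genes. Annotated genes include noncoding genes and pseudogenes, so that base is not a like one and does not place these relatives above background. Of these 44 paralogues 0 were high, 5 were moderate (Dstn, Coro2a, Coro7, Arpc1a and Arpc5l), 6 were low and 33 were not detected, 12 of them without a count in either library. Coro2a stood at 22.3 and 19.0 TPM and Coro7 at 19.5 and 18.9. Their median was 0.0225 ± 0.0177, while the 42 genes had a median of 120. Both lists were chosen with earlier results of these data known, so no conclusion is drawn from this difference.

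Genes that act on the same network from upstream ranged from high to not detected. Among 26 genes of the WAVE complex, the cortactins and the formins, 1 was high, 9 were moderate and 8 low. That group was led by Hcls1, the cortactin relative of blood cells, at 111 and 117, and Nckap1l, a WAVE complex subunit of blood cells, at 71.0 and 71.1, with Abi1 at 58.8 and 42.2. The 22 regulators of turnover held 2 high and 12 moderate genes. Arhgdib and Arhgdia stood at 235 and 202 and at 217 and 190, and Wdr1, a cofactor of cofilin, at 60.7 and 72.5.

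Contractile and adhesive partners spread as widely. Among 22 symbols of myosins, light chains and tropomyosins (23 gene entries), 2 entries were high, Myl6 at 322 and 245 and Tpm3 at 238 and 196, and 10 were moderate. Of 20 podosome and adhesion genes 3 were high and 12 moderate: Tyrobp, an adaptor of activating receptors, stood at 610 and 488, Fyb, an adaptor that binds Evl and VASP proteins, at 317 and 253, and Plek, pleckstrin, at 350 and 203. Serum response factor, the transcription factor that controls many actin genes, was low, with Srf at 7.63 and 6.54; its coactivator Mrtfa stood at 17.3 and 13.3, and Myocd, the partner known from muscle, was listed at 0.

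The 2 libraries were set against each other as a log2 ratio of TPM plus 0.1, centred on the median of all detected genes, which was -0.14. A ratio beyond 1.5-fold is a description of 2 libraries, without a test. By this measure 4 of the 42 genes (9.52%) were higher in replicate 2, against 4.22% of detected genes, and 2 (4.76%) were lower, against 3.73%. The 4 were Fscn1 at 1.31, Flna at 0.92, Tln1 at 0.82 and Myh9 at 0.71. Myh9 did not pass without centring or in the read-based tables, where its ratio was 0.51 and Coro1a, at 0.59, passed instead. Tmsb10 at -1.06 and Marcksl1 at -0.61 were the 2 lower ones, and Capg at -0.43 came next. The remaining 36 lay within 1.5-fold, and the median size of the log2 ratio was 0.14 for the 42 genes and 0.19 for detected protein-coding genes.

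Differences between the libraries went with transcript length. Across the 42 genes the ratio had a Spearman correlation of 0.41 with effective length, and across all 8812 detected protein-coding genes one of 0.38; the genes of a library share its preparation and its reads, and these are descriptions. Genes of up to 500 bases had a median ratio of -0.30 and those over 6000 bases one of 0.21. Flna, Myh9 and Tln1, with effective lengths of 6727, 7172 and 7955 bases, belong to the longest class of 470 genes, and Tmsb10, at 345 bases, to the shortest class of 334. Set against the median of their own length class, 5 of the 42 were beyond 1.5-fold, against 501 of the 8812 detected protein-coding genes. That comparison was added after the data were seen. Of the 501 genes, 251 were higher and 250 lower. Among the 42, Fscn1 (1.28), Flna (0.71), Coro1a (0.63) and Tln1 (0.61) were the higher ones and Tmsb10 (-0.76) the lower. Myh9 (0.50) and Marcksl1 (-0.53) no longer passed. In the same class 9 of 470 genes had a higher ratio than Flna, 14 than Tln1 and 23 than Myh9.

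Other measures moved between the libraries as well. Malat1 and Neat1, long RNAs known from the nucleus and named here after their values were seen, stood at 132 and 384 TPM and at 7.96 and 29.7. The summed TPM of the 9 neutrophil markers was 5.73 and 12.6, and of the 10 macrophage markers 5231 and 5762, although the macrophage median went the other way, at 226 and 185. Of those 10 markers 2 were higher in replicate 2 by over 1.5-fold, Adgre1 (358 and 706 TPM) and Itgam (24.4 and 37.3). Their part in the values of Fscn1, Flna, Tln1, Myh9, Tmsb10 and Marcksl1 was not tested. In RNA from a whole culture, fewer cells that express a gene and less RNA of it per cell cannot be told apart.

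**Figure D3:**
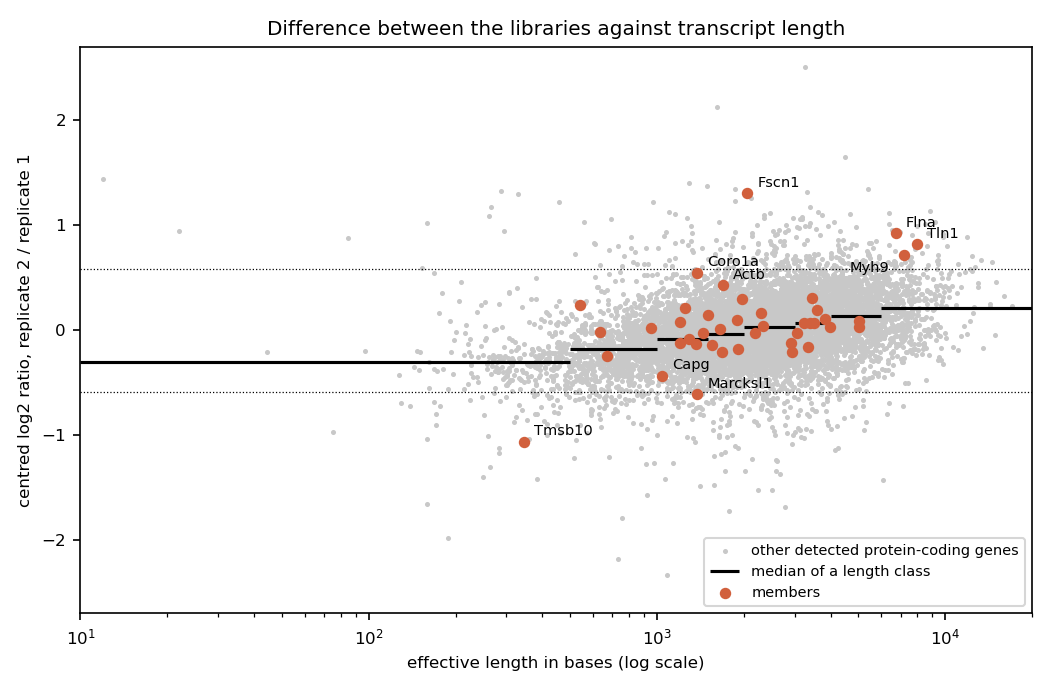
Centred log2 ratio of replicate 2 to replicate 1 against effective length in bases (log axis) for 8812 detected protein-coding genes, with the 42 genes as large points, those at 0.4 or beyond named, bars for the median of each length class and dotted lines at 1.5-fold. The bars climb from -0.30 in the shortest class to 0.21 in the longest, and Fscn1 stands highest among the large points.

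The gene levels rest on the transcripts to which reads were assigned. The 42 genes have 279 annotated transcripts, and 40 have at least 2. Of these, 38 (95.0%) had the same leading transcript in 4 transcript tables, 2 per library, against 84.1% of 8346 detected genes with at least 2 transcripts. The exceptions were Rdx, where Rdx-203 led in both alignment-based tables with 64.2% and 73.1% and Rdx-201 led in the read-based table of replicate 1 with 53.5%, and Evl. Evl-207 led with 45.8% and 43.2% by alignment, but in the read-based table of replicate 2 it and Evl-206 held almost equal shares of 33.5%. All 42 leading transcripts are annotated as protein-coding. In 15 of the 40 genes with at least 2 transcripts the leading one held at least 90% in all 4 tables, among them Tmsb4x, Tmsb10, Pfn1, Msn and Arpc5. The share of all detected genes past that limit was not computed, so the 15 are not set against a background.

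Some genes divided their message between transcripts whose annotated coding sequences are identical base for base. For Lcp1, Lcp1-209 held 56.0% and 60.3% and Lcp1-206 41.5% and 36.9%, both with the same 627 codons. Capg-201 held 72.1% and 66.9% and Capg-202 24.5% and 29.7%, both with the same 349 codons. For Actg1, Actg1-202 held 60.3% and 55.7% and Actg1-204 38.5% and 42.7% in the alignment-based tables, but 98.4% and 87.1% and 0.55% and 11.8% in the read-based ones; both have the same 375 codons. The 2 methods thus differ on which of these Actg1 transcripts the reads belong to.

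Other genes divided between transcripts with different products. By alignment Gsn was almost all Gsn-205, with 731 codons, at 94.3% and 94.2%, while Gsn-201, with 780 codons, held 0.13% and 1.75%. The shorter product is the size class of cytoplasmic gelsolin, which lacks the secretion signal of the plasma form. By reads Gsn-205 still led, with 84.0% and 81.7%, while Gsn-206 held 12.8% and 10.6% and Gsn-201 1.67% and 5.79%. Arpc4-203 and Arpc4-204, with the same 78 codons, held 41.3% and 43.9% and 24.4% and 28.8%, and Arpc4-201, which encodes the full 168 codons, 34.4% and 27.2%. In the read-based tables Arpc4-201 held 13.5% and 11.8% and Arpc4-204 37.7% and 37.2%, so these shares depended on the method. Part of the Arpc4 message in these tables is therefore assigned to annotated transcripts with a shortened coding sequence; Arpc4 shares 19.6% of its 31-base words with the overlapping gene Ttll3. For Cfl1, Cfl1-201 with 227 annotated codons held 72.5% and 75.1%, and Cfl1-202 with 166 codons 25.0% and 23.3%, against 12.8% and 13.3% for Cfl1-202 in the read-based tables.

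A few genes had sizable shares in transcripts that are not annotated as protein-coding, a class that includes targets of nonsense-mediated decay. Vim-203, a transcript of 535 bases that retains an intron, held 31.7% and 39.8% of Vim, and 23.7% and 30.8% in the read-based tables. Actn4-206, a processed transcript of 2581 bases, held 46.6% and 39.4% of Actn4, and 34.5% and 27.9% in the read-based tables. The share of Flna in such transcripts was 23.9% and 25.9% by alignment but 0.995% and 1.41% by reads. The reverse held for Myh9, at 0.60% and 0.68% by alignment and 21.02% and 10.96% by reads, and for Actn1, at 0.13% and 0.92% and at 14.8% and 20.6%. These 3 shares therefore depended on the method. For the scarce Fscn1 they differed between libraries as well, at 14.5% and 0% by alignment and 31.6% and 3.77% by reads. Over all 42 genes, protein-coding transcripts held 98.0% and 97.8% of TPM, against 93.2% and 93.3% for detected protein-coding genes. Transcripts with a retained intron held 1.71% and 1.89%, against 2.86% and 3.04%. These are shares of summed TPM, of which Tmsb4x and Actb together held 51.3% and 59.2%, so they say little about most single genes of the set.

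**Figure D4:**
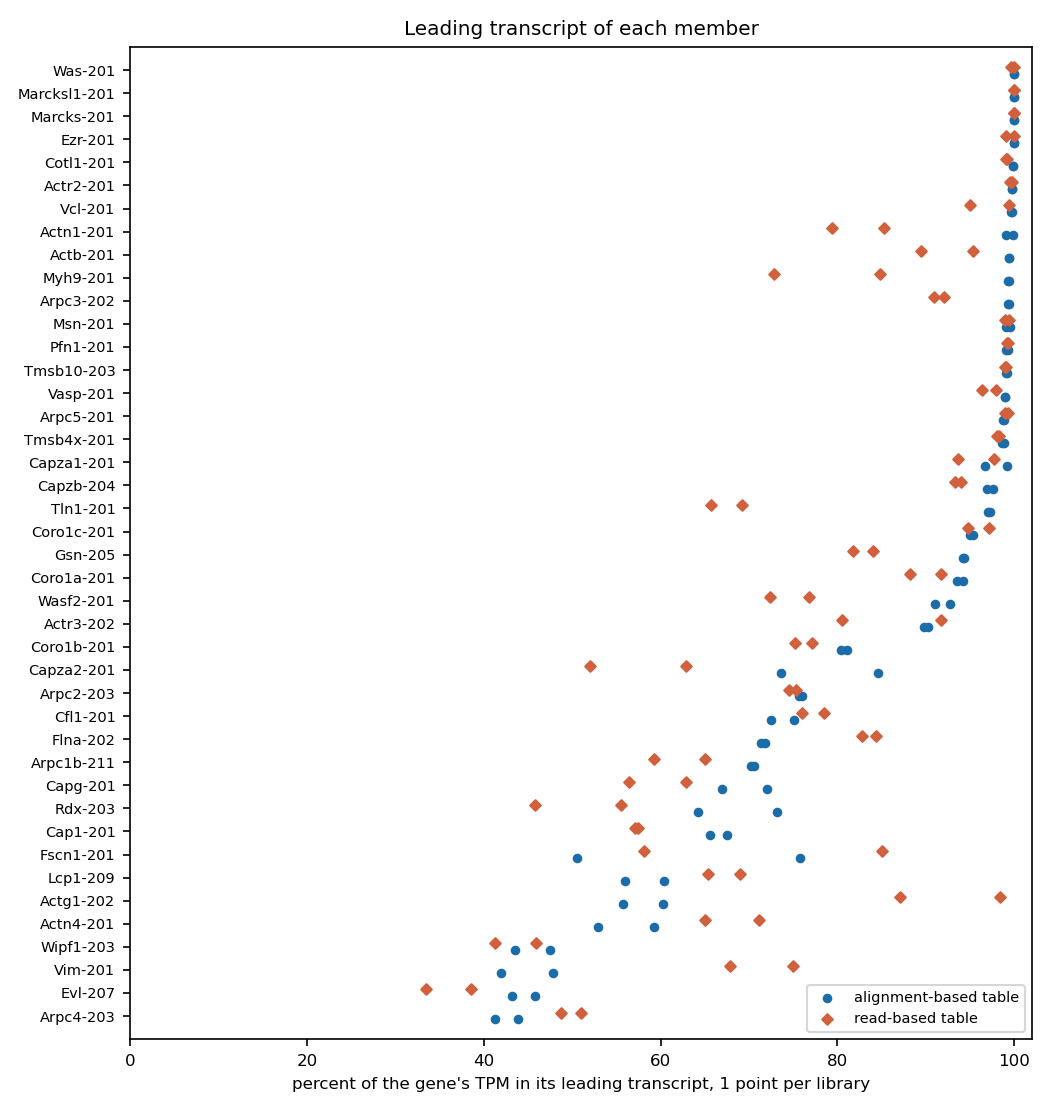
Percent of a gene's TPM in its leading transcript for the 42 genes, 1 point per library, in the alignment-based tables (circles) and the read-based tables (diamonds). Was, Marcks and Cotl1 lie near 100% in all tables, while for Actg1, Vim, Tln1 and Myh9 the 2 kinds of table stand apart.

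Gene levels from the 2 kinds of table differed little once each table was centred. Of the 42 genes 0 were at least 1.5-fold higher in the read-based table in both libraries, against 1.3% of detected genes, and 0 were at least 1.5-fold lower, against 2.56%. The largest departures were Tln1, at 0.46 and 0.39 on the log2 scale, and Capza2, at 0.37 and 0.31, toward the read-based table, with Flna, at -0.32 and -0.34, and Vim, at -0.27 and -0.32, the other way.

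Serum response factor binds a motif named the CArG box, in which a run of A and T stands between CC and GG, and many actin genes are known to carry one. RefSeq promoters on the GRCm38.p6 build, from 250 bases before to 50 after a start site, were found for 38 of the 42 genes. The table held no entry under the symbol Actb. A CArG box on either strand was present in 3 of the 38 (7.89%), against 1.81% of 27025 genes in the table and 1.46% of 7046 detected protein-coding genes. The windows around the 3 matches are printed because they hold the letters of the motif named above, with the CArG box in capitals.
Actg1, chr11:120348556-120348605, minus strand: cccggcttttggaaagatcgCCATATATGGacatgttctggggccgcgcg
Vcl, chr14:20929151-20929200, plus strand: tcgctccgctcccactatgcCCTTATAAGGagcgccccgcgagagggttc
Arpc4, chr6:113377863-113377892, plus strand: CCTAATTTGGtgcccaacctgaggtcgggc
A match is a description of these letters and not evidence of binding. The 3 genes stood at unlike levels, with means of 528 TPM for Actg1, 101 for Arpc4 and 1.34 for Vcl. The letters TATAAA occurred in 3 of the 38 (7.89%), namely Vim, Fscn1 and Myh9, against 8.36% of detected protein-coding genes. The letters GGGCGG occurred in 30 (78.9%), against 70.5%.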

How the data were processed

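For each of 2 libraries, 3 deposited tables were used: genes and transcripts quantified after alignment (called alignment-based here) and transcripts quantified directly from the reads (called read-based). The deposited text beside them gives mm10 as the assembly and GENCODE M21 as the annotation. Which aligner and quantifiers were run, and whether strand was used, is not given in the sources used here. Expected counts are the authors' unscaled estimates of reads per gene or transcript, per the file headers. TPM was deposited too, corrected for effective length and made to sum to a fixed total over all features, noncoding RNAs and spike-ins included. The percent of each gene's TPM in a transcript was deposited for the alignment-based tables, per the file headers, and computed from TPM for the read-based ones.

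Genes were matched by symbol. Read-based gene levels are sums over transcripts. With 1 group no test between conditions was possible and no p-value was computed. Ratios used TPM plus a pseudocount of 0.1. The fold rule and the search for shared 31-base words, which compared a gene's leading transcript with all transcripts of other genes, were tested on simulated data. Expected counts were rounded to whole numbers for the scaling by TMM in edgeR 4.0.16. Python 3.11.15, pandas 2.3.3 and Biopython 1.88 (pairwise alignment of coding sequences) were used. The 42 genes, their roles and the other gene lists were chosen with earlier results of these data known. Named were all 42 genes, the leading genes of each other list and genes that overlap a member; relatives of single members and genes that share sequence with them were named after their values were seen. The alternatives tried were the read-based tables, other thresholds, pseudocounts and scalings, expected counts, and each library alone. Some items of these lists are not reported here.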

Additional observations from a re-analysis of the deposited data

How the results depend on the processing

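No paired analysis was possible because there is 1 group. The number of detected genes was 40 in the read-based tables and at a limit of 5 TPM, and 42 under the other settings tried. The number of high genes, 22, became 10 in the read-based tables and 34 with TPM rescaled to protein-coding genes. Both settings move the levels of detected genes in general. The share of detected genes at 100 TPM or more was not computed under them. The median TPM of 120 became 63.2, 427.5 and 94.5 in the read-based tables, after that rescaling and as a geometric mean, and each library alone gave 116 and 124. The share of protein-coding TPM, 5.06%, became 1.41% when taken over all features and ran from 4.77% to 5.34% with 1 library left out. The share of expected counts, 3.34%, became 3.06% in the read-based tables and ran from 3.20% to 3.48%. A 2-fold limit left 2 of the 6 genes apart between the libraries, Fscn1 and Tmsb10, and Myh9 dropped out without centring and in the read-based tables. Roles with a median of at least 100 fell in number from 6 to 3 in the read-based tables. Without centring, 34 of the 42 genes were over 1.5-fold lower in the read-based tables, whose values ran lower for detected genes in general (medians of -0.75 and -1.14 on the log2 scale). Expected counts reversed 3 pair ratios, Coro1a over Coro1c (0.14 to -1.09), Coro1b over Coro1c (0.54 to -0.57) and Vasp over Evl (-0.32 to 0.72); expected counts grow with transcript length. Coro1a over Coro1c ran from -0.099 to 0.38 with 1 library left out. With 2 libraries a spread is poorly known, and depth limits chiefly Fscn1 and Vcl.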
